A study of Mus musculus with 6 samples.

Results

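The regions described here are the stretches of mouse chromosome 9 around Cgas at which CTCF was called bound in regulatory T cells of the thymus. Peaks of 6 deposited lists were merged wherever they overlapped by 1 bp, and merged regions that touched chr9:68300000-88300000 were kept, about 10 Mb on each side of Cgas near 78.34 Mb. This gave 765 regions, of 94951 in the whole series and beside 4241 on the rest of chromosome 9. The lists came from 3 libraries of Cgas_KO mice, which lack the DNA sensor cGAS, and 3 libraries of wild-type (WT) mice, all thymic regulatory T cells profiled by CUT&RUN for CTCF. In CUT&RUN an antibody brings a nuclease to a bound protein, and the DNA released around it is sequenced. The labels do not state the strain or age of the mice, the making of the knockout allele or whether replicates were separate animals. A p-value here therefore covers nothing beyond the spread among the 6 libraries, which may be technical. Positions are in mm39, since scaffolds in the lists are named as in that build.

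CTCF is a zinc-finger protein that binds a long DNA motif and, together with cohesin, sets the ends of chromatin loops, and much of its binding is shared between cell types. Cgas encodes the enzyme that detects DNA in the cytosol and makes the messenger cGAMP, which activates STING. When a gene is deleted in stem cells of one mouse strain and the mice are then crossed to another, DNA of the first strain can stay around the gene as a passenger haplotype. Sequence differences in such a stretch can change binding sites that have nothing to do with the deleted gene. The comparison below therefore asks whether regions called in 1 genotype only gathered around Cgas.

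In the order of the annotation, the protein-coding genes nearest to Cgas are Ddx43, a helicase gene, on one side and Mto1, whose product modifies mitochondrial tRNAs, on the other. Next to Mto1 lies Eef1a1, a translation elongation factor. These names come from RefSeq on GRCm38.p6, another build than that of the lists, so no region is assigned to a gene. The promoter of Cgas is shown because it is the control sequence of the targeted gene at the centre of the window. It is taken from RefSeq, lies at chr9:78443188-78443487 of GRCm38.p6 on the minus strand, and runs from 250 bases before to 50 bases after the start of the gene. This position cannot be set against the mm39 positions of the regions.

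Cgas promoter: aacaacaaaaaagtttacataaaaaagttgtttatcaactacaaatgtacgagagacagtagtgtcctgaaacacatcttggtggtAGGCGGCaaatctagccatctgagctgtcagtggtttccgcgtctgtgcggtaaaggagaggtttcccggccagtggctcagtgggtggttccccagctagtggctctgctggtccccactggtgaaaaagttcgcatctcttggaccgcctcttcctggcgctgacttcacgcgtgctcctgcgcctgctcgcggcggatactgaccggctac

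The capitals mark AGGNGGC, letters from one side of the CTCF motif, found 1 time on the strand shown. Both strands were searched. The same letters occur in 29.4% of 32851 promoters of this length. The letters CCACNAGG, which overlap the first by AGG in the full motif, were not in this sequence and occur in 4.99% of promoters. The sequences of the regions themselves were not used here.

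The Cgas locus, chr9:78250000-78450000, held CTCF peaks in every list of both genotypes. There were 6, 7 and 8 peaks in Cgas_KO replicates 1 to 3, against 4, 6 and 6 in WT replicates 1 to 3 (7 ± 1 and 5.33 ± 1.15, SD, n = 3). The ranges met at 6 peaks, and the difference did not pass the test (exact permutation, two-sided, p = 0.3, or 0.375 after Benjamini-Hochberg adjustment over 5 measures). Peaks covered 27.7, 22.9 and 24.5 kb of the locus in Cgas_KO lists, against 22.1, 22.2 and 21.2 kb in WT lists. Every Cgas_KO value was thus above every WT value (25.0 ± 2.44 and 21.8 ± 0.551 kb, SD, n = 3; adjusted p = 0.167 from an exact permutation p of 0.1). Among the upper 50% of peaks by total signal the difference was 1.55 kb instead of 3.20 kb (exact permutation p = 0.6). The smallest p that 3 libraries per genotype can give in this test is 0.1.

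**Figure D1:**
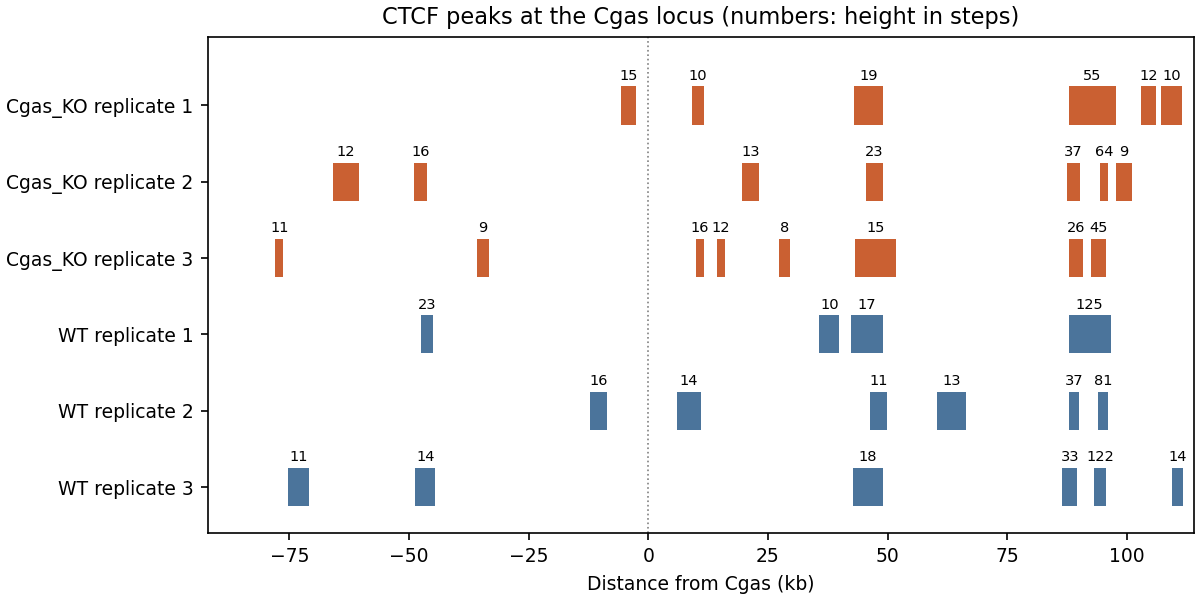
Peaks of the 6 lists at the Cgas locus by distance from Cgas in kb (dotted line), with each bar as wide as its peak and its height in steps above it. All 6 lists share the tall peaks about 90 kb to the right, where the tallest peak is 45 to 64 steps high in Cgas_KO lists and 81 to 125 in WT lists, and the smaller peak about 47 kb to the right.

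The peaks of the locus merged into 17 regions, and none of them was called in all 3 lists of one genotype and in no list of the other. Of the 17, 12 were called in a single list, 8 of these in a Cgas_KO list and 4 in a WT list. Their peaks were 8 to 16 steps high, at percentiles 15.9 to 66.8 of the heights in their lists, so on both sides of the median. A step is the smallest unit of peak height in a list: the height, or max signal, of a peak was a whole multiple of it, and the labels do not say what a step is worth in reads or fragments. The median peak of a list was 11 to 14 steps high.

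Closest to the stated position of Cgas, a Cgas_KO peak of 15 steps lay at chr9:78334273-78337405, in replicate 1. On the other side of that position, the region chr9:78346070-78351694 was called in Cgas_KO replicates 1 and 3 at 10 and 16 steps, and in WT replicate 2 at 14 steps. Both genotypes thus had a called peak there, and 3 of the 6 lists had none. The labels do not state which bases the knockout allele lacks, so the locus was not used to check the genotype labels. The other regions called in several lists but not in all were chr9:78291000-78295502, in 1 Cgas_KO and 2 WT lists, and chr9:78447152-78451835, in 1 list of each genotype.

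The tallest region of the locus, chr9:78426525-78441136, was called in all 6 lists. It was 55, 64 and 45 steps high in Cgas_KO lists, against 125, 81 and 122 steps in WT lists. A step itself differed by genotype, at 0.117 to 0.120 signal units in Cgas_KO lists and 0.190 to 0.212 in WT lists. In deposited signal the region therefore reached 6.43, 7.50 and 5.42 in Cgas_KO lists and 23.7, 17.2 and 23.8 in WT lists, so the ratio of the Cgas_KO to the WT mean was 0.5 in steps and 0.299 in signal. The groups did not overlap on either scale. How many other regions separate on these scales was not counted. By height over the list median, 82.1% of the 4896 regions of the genome called in all 6 lists were lower in Cgas_KO. In place within the list the groups overlapped, at percentile 98.7 ± 0.252 in Cgas_KO and 99.0 ± 0.322 in WT (SD, n = 3). In limma on the ranks of heights within lists, described further on, the region did not pass (adjusted p = 0.805). The midpoints of the highest signal fell between 78434877 and 78435192 in all 6 lists, within 315 bp of one another. A second, lower peak was called separately in Cgas_KO replicates 2 and 3 and in WT replicates 2 and 3, with midpoints between 78429172 and 78429289. In these 4 lists it was 26 to 37 steps high and lay 5.84 kb from the main peak, by the medians of the midpoints. In Cgas_KO replicate 1 and WT replicate 1 a single wide peak spanned both positions.

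The other locus region in all 6 lists was chr9:78382445-78391712. Its heights were 19, 23 and 15 steps in Cgas_KO lists and 17, 11 and 18 in WT lists. In percentiles of the list it stood at 82.1 ± 4.56 in Cgas_KO and 55.9 ± 17.8 in WT (SD, n = 3), with every Cgas_KO list above every WT list. The next region in all 6 lists to the left of the locus was chr9:78100434-78104140, at 23, 21 and 11 steps in Cgas_KO and 37, 27 and 19 in WT. To the right the next one, chr9:79801587-79813903, came after a gap of 1.36 Mb. It had 10, 13 and 11 steps in Cgas_KO and 11, 19 and 10 in WT, at a mean percentile of 39.4.

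No gathering of genotype-only regions around Cgas was seen in these lists. Among the 765 regions of the window, 1 was called in all 3 Cgas_KO lists and no WT list, 0.131% of them, where 0.33% of all regions of the series were Cgas_KO-only and 0.448% of those on the rest of chromosome 9. No region of the window was called in all 3 WT lists and in no Cgas_KO list. A count of 0 among 765 allows a share of up to 0.392%, so this is within the 0.377% seen in the whole series, which is also the share on the rest of chromosome 9. As a share of the regions called in exactly 3 lists, genotype-only regions came to 1 of 30 in the window, 3.33% (exact 95% binomial interval 0.0844 to 17.2%), and 35 of 252 on the rest of the chromosome, 13.9% (9.87 to 18.8%), beside 13.1% in the whole series. The difference of -10.6 points has a Newcombe interval of -16.1 to 3.29 points, which includes 0. These intervals cover counting error only.

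The single genotype-only region was chr9:72363903-72367877, at -5.97 Mb from Cgas. It was 18, 18 and 14 steps high in Cgas_KO replicates 1 to 3, at percentile 75.7 ± 0.154 (SD, n = 3). With Fisher's exact test on 3 against 3 libraries no single region can go below p = 0.1. Neither the inner 1 Mb on each side of Cgas, with 88 regions, nor the distances from 1 to 2.5 Mb, with 105, and from 2.5 to 5 Mb, with 167, held a genotype-only region. The outer part of the window, with 405 regions, held the 1 that was found. Over the whole series 0.707% of regions were genotype-only, so few would fall in any of these distances at that share.

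**Figure D2:**
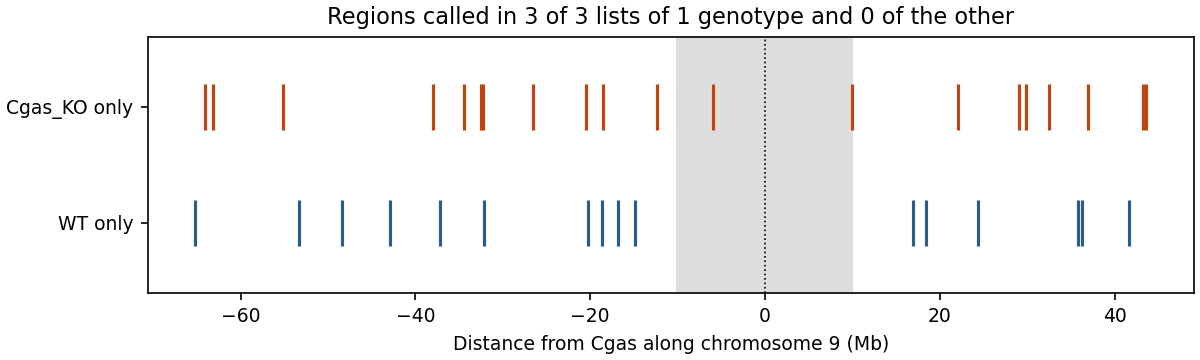
Positions along chromosome 9, as distance from Cgas in Mb, of regions called in 3 of 3 lists of 1 genotype and in 0 of the other, Cgas_KO-only above and WT-only below. The shaded window holds 1 tick well inside it, and a Cgas_KO-only tick stands at its right edge, just outside.

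The nearest genotype-only regions outside the window were both Cgas_KO-only. To the left this was chr9:66029001-66036567, at 15, 13 and 17 steps. To the right it was chr9:88317523-88323035, at 21, 17 and 11 steps, whose middle lies 9.98 Mb from Cgas and so would be inside a window centred on 78.34 Mb. Such a window, chosen after the data were examined, held 2 Cgas_KO-only and 0 WT-only regions among 768. The regions next to the edges were called in 1 or 2 WT lists at 9 to 14 steps. The first inside on the left, chr9:68355831-68358833, had 14 steps in 1 WT list, and the last outside it, chr9:68258030-68261706, 13 steps in 1 WT list. On the right, the last inside, chr9:88289332-88294723, had 9 and 10 steps in 2 WT lists, and the first outside, chr9:88309219-88314097, 12 steps in 1 WT list.

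The 4 other stretches of chromosome 9 of the same length, laid end to end with the window, held more genotype-only regions. From 8.3 to 28.3 Mb there were 3 Cgas_KO-only and 2 WT-only regions. From 28.3 to 48.3 Mb and from 48.3 to 68.3 Mb there were 4 of each kind, and from 88.3 to 108.3 Mb 4 and 3. The window from 68.3 to 88.3 Mb thus had the fewest of these 5 stretches. The counts are small and leaving out libraries moves them. Cgas_KO-only regions in the window numbered 13, 9 and 7 without Cgas_KO replicate 1, 2 or 3, and 1, 3 and 2 without WT replicate 1, 2 or 3. WT-only regions numbered 1, 0 and 2 without Cgas_KO replicate 1, 2 or 3, and 4, 3 and 6 without WT replicate 1, 2 or 3. A rise is built in, since fewer lists are then asked for. The difference in share from the rest of chromosome 9, taken with the same lists, turned to 3.63 points without Cgas_KO replicate 1. Without each of the other libraries in turn it was -7.40 to -1.94 points.

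When 2 of 3 lists of a genotype sufficed, the window held 27 Cgas_KO-only and 12 WT-only regions, 3.53% and 1.57% of its regions. The rest of chromosome 9 held 138 and 126, or 3.25% and 2.97%, and the whole series 3.26% and 3.02%. The share of Cgas_KO-only regions was thus close to that elsewhere, and the share of WT-only regions was the smaller one. The imbalance lay to the left of Cgas, with 20 Cgas_KO-only and 5 WT-only among 444 regions. To the right there were 7 of each kind among 321 regions. In the inner 1 Mb on each side there were 1 Cgas_KO-only and 0 WT-only among 88 regions. Regions in all 3 lists of 1 genotype and in 1 of the other were 6 for Cgas_KO and 3 for WT, 0.784% and 0.392% of the window. On the rest of chromosome 9 they were 28 and 39, and in the whole series 0.654% and 0.989% of regions, so WT had the larger number there. The nearest of these to Cgas were chr9:78202435-78206080, at 19 steps in Cgas_KO replicate 3 alone and 18, 31 and 17 steps in WT lists, and chr9:78549527-78555250, at 15, 13 and 11 steps in Cgas_KO lists and 27 steps in WT replicate 3.

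The window did hold more peaks in Cgas_KO lists. There were 232, 202 and 265 peaks in Cgas_KO replicates 1 to 3, against 187, 192 and 177 in WT replicates 1 to 3, and the groups did not overlap. Mean peak number was higher in Cgas_KO in the 4 other stretches too, and in the one from 28.3 Mb the groups likewise did not overlap (254.3 ± 13.7 in Cgas_KO and 231.7 ± 4.51 in WT, SD, n = 3). Because the lists differ in length, with 28052 to 31707 peaks in Cgas_KO and 27128 to 28926 in WT, the number was also set against the rest of chromosome 9 in the same list. The window held 14.5, 13.5 and 15.4% of the chromosome 9 peaks of Cgas_KO lists, against 12.7, 12.9 and 12.2% in WT lists (14.5% ± 0.979 and 12.6% ± 0.339, SD, n = 3). This difference of 1.84 points was higher in 3 of 3 Cgas_KO lists and reached the smallest p that the test allows (exact permutation p = 0.1, adjusted 0.167). Of the length covered by peaks on chromosome 9, the window held 14.3% ± 0.998 in Cgas_KO and 12.4% ± 0.754 in WT (SD, n = 3; exact permutation p = 0.1, adjusted 0.167).

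Set against all peaks of a list, the window held 0.782% ± 0.0582 in Cgas_KO and 0.667% ± 0.0158 in WT, while the rest of chromosome 9 held 4.62% ± 0.0411 in Cgas_KO and 4.62% ± 0.107 in WT (SD, n = 3). Peaks covered 3.94, 3.79 and 3.60% of the window in Cgas_KO lists, against 3.50, 3.36 and 3.19% in WT lists. Each Cgas_KO list was above each WT list here, but in none of the 4 other stretches of chromosome 9, where mean coverage was slightly lower in Cgas_KO. Over both sides of Cgas the pattern was alike: 4.68% ± 0.377 in Cgas_KO and 4.15% ± 0.273 in WT to the left, and 2.86% ± 0.135 in Cgas_KO and 2.54% ± 0.157 in WT to the right (SD, n = 3).

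**Figure D3:**
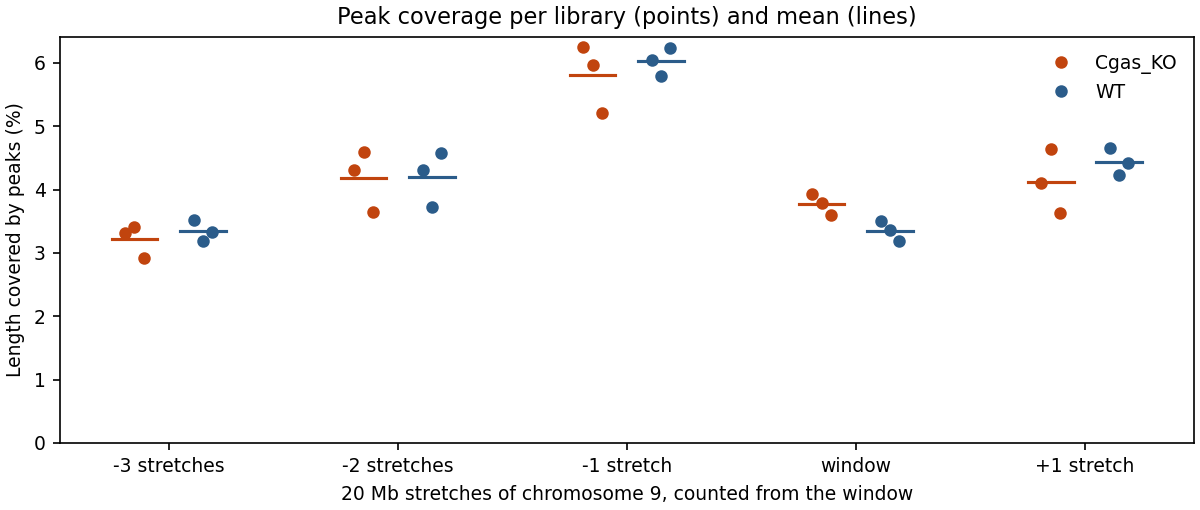
Share of each 20 Mb stretch of chromosome 9 covered by peaks, in percent, for Cgas_KO (left of each pair) and WT libraries (points) with their means (lines), counted in stretches from the window. In the window the Cgas_KO points, 3.60 to 3.94%, lie above the WT points, 3.19 to 3.50%, while the groups overlap in the other stretches.

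Each distance from Cgas had more peaks in Cgas_KO on average. Within 1 Mb of Cgas there were 33.3 ± 5.13 peaks in Cgas_KO and 28.3 ± 3.79 in WT (SD, n = 3), with overlapping groups. From 1 to 2.5 Mb there were 28.7 ± 3.79 and 21.3 ± 2.89, from 2.5 to 5 Mb 45.0 ± 10.8 and 35.7 ± 1.53, and from 5 Mb to the edges 126.0 ± 13.0 and 100 ± 7.81, Cgas_KO first in each case. The groups did not overlap in the second and the last of these bins. These numbers were not set against list length, and Cgas_KO lists were longer on average. In covered length the groups overlapped in every bin but the last. It was 2.94% ± 0.447 in Cgas_KO and 2.68% ± 0.392 in WT from 1 to 2.5 Mb. From 5 Mb to the edges it was 4.10% ± 0.243 in Cgas_KO and 3.56% ± 0.280 in WT (SD, n = 3). No trend with distance was tested.

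Regions called in a single list numbered 340 in Cgas_KO lists and 230 in WT lists within the window, 44.4% and 30.1% of its regions. On the rest of chromosome 9 they numbered 1565 and 1314 (36.9% and 31.0%), Cgas_KO first. In the whole series they numbered 36172 and 30194 (38.1% and 31.8%). The larger number in Cgas_KO was thus seen there too, but the Cgas_KO share was higher in the window. In the window, regions called in a single list held 112, 88 and 140 peaks in Cgas_KO lists, against 83, 85 and 62 in WT lists. Regions called in 2 to 5 lists held 83, 77 and 88 peaks in Cgas_KO lists, against 69, 69 and 77 in WT lists. Regions called in all 6 lists, which need a peak in every list, held 37, 37 and 37 against 35, 38 and 38. The excess thus lay mostly in regions called in a single list. Cgas_KO replicate 3, the longest list with 31707 peaks, had the most peaks in such regions. Without it the difference in the share of chromosome 9 peaks was 1.35 points, still with no overlap. Among the upper 50% of peaks by total signal that difference was 0.915 points (exact permutation p = 0.2), and within 5 Mb of Cgas it was 0.843 points. For covered length the difference was 1.10 points in the upper 50% and 0.695 points within 5 Mb (exact permutation p = 0.2 in both). The interval within 5 Mb is shorter than the window, so smaller differences in share are built in there.

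The same measure was taken in all 114 stretches of 20 Mb on the autosomes and X, a comparison chosen after the data were examined. The share of a list's peaks was higher in every Cgas_KO list than in every WT list in 14.0% of them and lower in 8.77%. Covered length was higher in every Cgas_KO list in 2.63% and lower in 11.4%, so separation in the other direction was the more frequent one for coverage. The window was among the higher ones by both measures. Its ratio of Cgas_KO to WT was 1.17 for the share of peaks and 1.13 for covered length, ranks 6 and 5 of 114. The other stretches with higher coverage in every Cgas_KO list lay on chromosome 2 from 48.3 to 68.3 Mb, at a ratio of 1.26, and on chromosome 12 from 28.3 to 48.3 Mb, at 1.17. An excess of this size was therefore seen on other chromosomes too. What lies behind it was not tested.

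**Figure D4:**
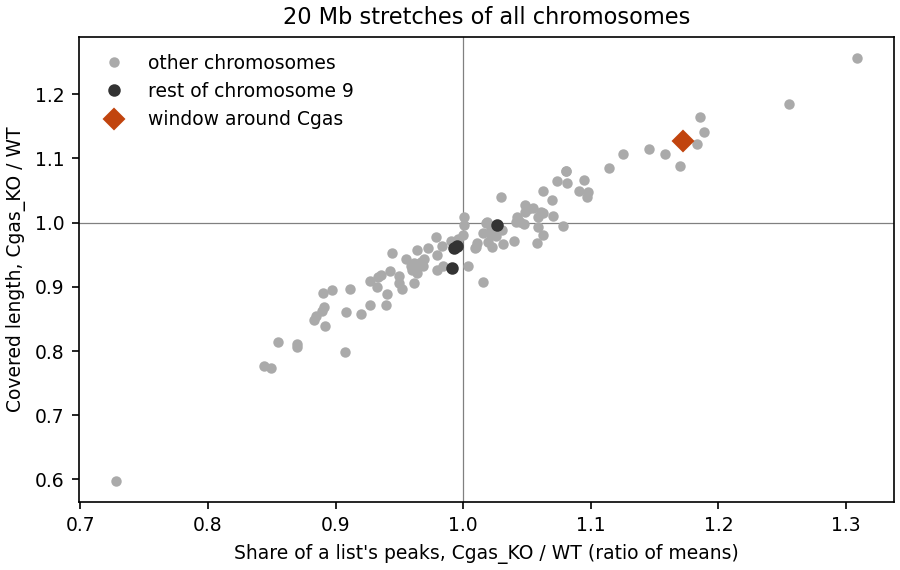
Each point is a 20 Mb stretch, placed by the ratio of Cgas_KO to WT means in the share of a list's peaks and in covered length. The window around Cgas (diamond, 1.17 and 1.13) stands to the upper right of the 4 other stretches of chromosome 9, and 4 stretches of other chromosomes have a higher coverage ratio.

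Of the 765 regions, 33 (4.31%) were called in all 6 lists and 570 (74.5%) in 1 list, where the rest of chromosome 9 had 5.92% and 67.9%. The 33 were unevenly placed: 12 lay over 5 Mb to the left of Cgas, 10 within 5 Mb to the left, 4 within 5 Mb to the right and 7 beyond. Their median width was 6860 bp and their median spacing 0.138 Mb, with the widest gap at 2.74 Mb. The midpoint of the highest signal was placed closely in many of them. In 17 of 33 (51.5%) the 6 midpoints fell within 500 bp, as in 40.6% of such regions on the rest of chromosome 9 and 42.6% in the genome.

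The tallest of them by mean percentile was chr9:71093792-71097535, at -7.24 Mb from Cgas. It was 69, 66 and 57 steps high in Cgas_KO lists and 130, 126 and 134 in WT lists, with midpoints within 166 bp. The tall region of the Cgas locus came next. The third, chr9:71449505-71453484, had 60, 55 and 36 steps in Cgas_KO and 93, 98 and 88 in WT. The fourth, chr9:83572224-83575311, had 54, 46 and 38 steps in Cgas_KO and 89, 101 and 101 in WT, and the closest midpoints of all 33, within 63 bp. The fifth, chr9:71519588-71528161, had 36, 42 and 32 steps in Cgas_KO and 73, 61 and 65 in WT. In each of these 5 the Cgas_KO heights were below the WT heights.

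**Figure D5:**
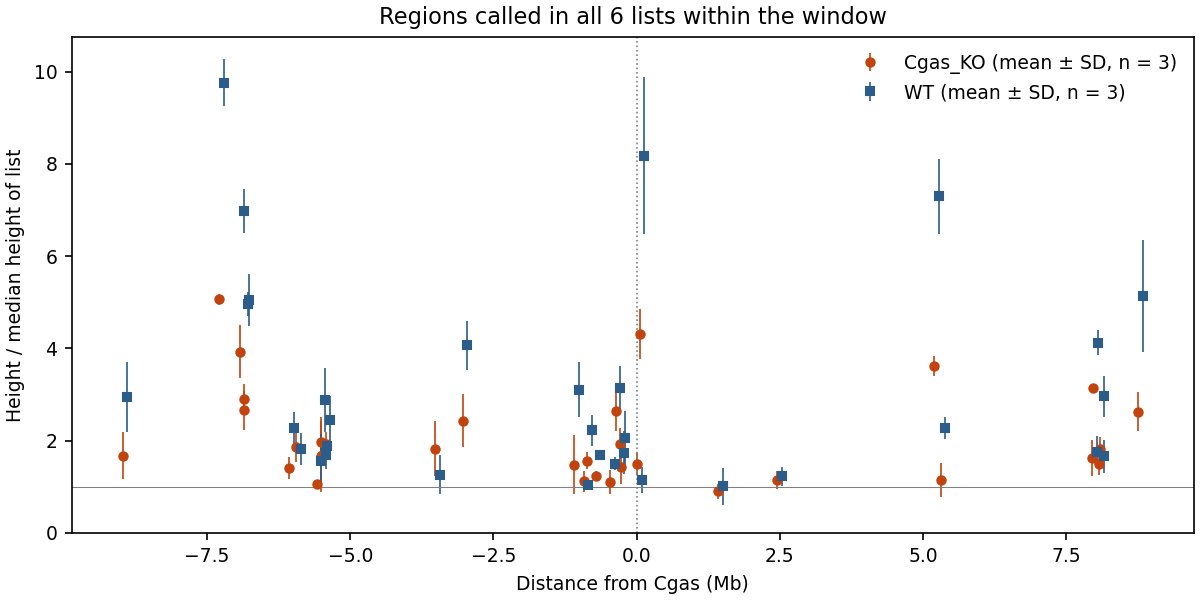
Height of the 33 regions called in all 6 lists, divided by the median peak height of the list, against distance from Cgas in Mb (points set slightly apart sideways), as mean ± SD over 3 Cgas_KO (circles) and 3 WT lists (squares). The 4 tallest regions stand at 3.62 to 5.06 in Cgas_KO and 6.98 to 9.76 in WT, and 1 of them lies at the Cgas locus.

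Lower heights in Cgas_KO were also seen outside the window. Divided by the median height of the list, the region at 71.1 Mb stood at 5.06 ± 0.127 in Cgas_KO and 9.76 ± 0.515 in WT, and the tall region of the Cgas locus at 4.31 ± 0.534 in Cgas_KO and 8.18 ± 1.70 in WT (SD, n = 3). By this measure 28 of the 33 regions (84.8%) were lower in Cgas_KO, beside 85.3% on the rest of chromosome 9 and 82.1% of the 4896 such regions in the genome. The median region of the window stood at 1.68 in Cgas_KO and 2.27 in WT, and that of the genome at 1.71 in Cgas_KO and 2.18 in WT. In percentiles of the list, 5 of the 33 regions were higher in every Cgas_KO list than in every WT list, 15.2% beside 9.4% in the genome, and 3 were lower, 9.09% beside 6.76%. These shares rest on few regions. Depth per library is unknown, and its part in the heights was not tested.

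No region of the window passed a test of relative height. The test was limma on normal scores of ranks over the 4896 regions of the genome called in all 6 lists. With Benjamini-Hochberg adjustment at 0.05 it called 0.0% of all regions and 0 of the 33. At an unadjusted p under 0.05 it had 2 of the 33, where 9.44% of all regions fell under that value. On the log2 scale, with heights divided by the median of these regions in each list, limma called 0 of the 33 as well, with 11 at an unadjusted p under 0.05, of which 9 were lower in Cgas_KO. Over all 4896 regions that fit called 1 (0.0204%) and had 18.3% under the unadjusted value, with 11.4% lower in Cgas_KO.

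The region that came nearest was the smaller one of the Cgas locus, chr9:78382445-78391712, at 0.995 normal-score units higher in Cgas_KO (SE 0.309, limma adjusted p = 0.412). It was followed among the higher ones by chr9:74856929-74863218, at 33, 25 and 13 steps in Cgas_KO and 12, 16 and 22 in WT (limma adjusted p = 0.522), and chr9:78080391-78086327, at 26, 30 and 18 steps in Cgas_KO and 30, 16 and 24 in WT (limma adjusted p = 0.538). The region nearest to a call among the lower ones was chr9:83685222-83690996, at 15, 20 and 9 steps in Cgas_KO and 34, 31 and 26 in WT, a difference of -1.23 (SE 0.387, limma adjusted p = 0.412). After it came chr9:77283200-77290250, at 31, 16 and 11 steps in Cgas_KO and 53, 37 and 35 in WT (limma adjusted p = 0.538), and chr9:72306782-72318212, at 20, 15 and 18 steps in Cgas_KO and 37, 25 and 29 in WT (limma adjusted p = 0.623).

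Over all peaks of the window, the median height percentile within the list was 47.9 ± 4.26 in Cgas_KO and 49.7 ± 4.86 in WT (SD, n = 3), a difference smaller than the spread between replicates (exact permutation p = 0.9, adjusted 0.9). The likeness of lists of 1 genotype was measured by shared length. The Jaccard index divides the length covered in both lists of a pair by the length covered in at least one of them. It averaged 0.116 over the 3 Cgas_KO pairs, 0.139 over the 3 WT pairs and 0.126 over the 9 mixed pairs. With both genotypes weighted equally, pairs of 1 genotype exceeded mixed pairs by 0.00141 in the window and by 0.00305 on the rest of chromosome 9. In the window the mean of Cgas_KO pairs was below that of mixed pairs, and the mean of WT pairs was above it. The SD of the mixed pairs, 0.00721, is the spread of single pairs and does not measure the error of the excess. Pairs share libraries, so no test was made.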

How the data were processed

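CTCF CUT&RUN was measured in thymic regulatory T cells of 3 Cgas_KO and 3 WT libraries. Reads were aligned with Bowtie2 and peaks called with SEACR 1.3, per the submitters' processing notes, which list mm10 and mm39; the scaffold names in the deposited lists are those of mm39. Each list, deposited per library, gives the total and the highest signal of each peak; the labels do not say how this signal was normalized, and depth is unknown. SEACR calls blocks of signal above a threshold set per library, so peak number and width move with depth and background.

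Lists held 27128 to 31707 peaks. Peaks were merged at 1 bp overlap with Python 3.11.15, numpy 2.4.6 and pandas 2.3.3. Library measures were tested with exact permutation tests (scipy 1.17.1) and adjusted over 5 measures. Heights of the 4896 regions in all 6 lists were ranked within each list, turned into normal scores and fitted with limma 3.58.1 in R 4.3.3, tested on simulated data. Heights were whole steps within a tolerance of 0.01. Described individually were the regions of the locus, genotype-only regions and the nearest outside the window, the nearest regions in all 6 lists on each side, the 5 tallest, and the 3 with the smallest limma p in each direction. Members and lists were chosen with earlier results of these data known. Alternatives changed the overlap, merging, list length, total-signal minimum, window and libraries.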

Additional observations from a re-analysis of the deposited data

How the results depend on the processing

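Counts of genotype-only regions in the window moved with the rule. Cgas_KO-only regions numbered 27 when 2 of 3 lists sufficed, 0 within 5 Mb of Cgas, 2 in a window centred on Cgas (chosen after the data were examined) and 1 to 13 when single libraries were left out. WT-only regions numbered 12 when 2 of 3 lists sufficed, 2 with 50% coverage as overlap, 2 with lists matched to the shortest, 2 among the upper 50% of peaks by total signal, and 0 to 6 without single libraries. The genotype-only share, window minus the rest of chromosome 9, ran from -7.40 to 3.63 points without single libraries and was 3.03 points in the upper 50% of peaks, so its sign was not stable. The Jaccard excess was 0.0112 in the upper 50% of peaks and -0.00823 within 5 Mb, and -0.00183 to 0.00628 without single libraries. The difference in height percentile reversed to 1.03 with lists matched to the shortest and to 0.645 in the upper 50% of peaks, and was -4.60 to -0.118 without single libraries. The cause was not tested.

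Without single libraries the window's share of chromosome 9 peaks was 1.35 to 2.33 points higher in Cgas_KO, its share of covered length 1.31 to 2.30 points, and the locus held 1 to 2.17 more peaks and 1.88 to 4.28 kb more covered length. In a window centred on Cgas, chosen after the data were examined, the share of peaks differed by 1.90 points. The share of covered length differed by 1.92 points there, and both shares differed by 1.84 points in the main window. Some other settings gave smaller values. With lists matched to the shortest, the share of peaks differed by 1.49 points, the share of covered length by 1.53 points (exact permutation p = 0.2), locus peaks by 1 and locus covered length by 1.78 kb. In the upper 50% of peaks these were 0.915 points, 1.10 points, 0.667 peaks (exact permutation p = 0.9) and 1.55 kb (exact permutation p = 0.6). Within 5 Mb the shares differed by 0.843 and 0.695 points, where a smaller difference is built in because the interval is shorter. Limma on heights called 0 regions of the window under all 15 alternatives. No pairing by replicate number was seen: same-numbered deviations correlated at -0.0170 to -0.0130 and the others at -0.00260 to 0.0171. Such small values cannot tell whether same-numbered libraries were prepared together. With the replicate block the difference in the share of chromosome 9 peaks stayed 1.84 points (sign-flip exact permutation p = 0.25, the smallest possible with 3 pairs), and limma called 0 regions. Unknown depth, and 3 libraries per genotype, limit what could be detected.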
